A study of Homo sapiens with 8 samples.

Results

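RGS1, RGS2, GPR183, OSM, TRIB1 and KLF6 are 6 human signalling genes, of 60676 in the counts table, whose levels were followed in leukaemia cells taken from mice on a ketogenic or a standard diet. The cells were MOLM14, an established line of acute myeloid leukaemia that carries FLT3-ITD, a duplication within the FLT3 gene, together with an MLL rearrangement. All mice were engrafted with it, and gilteritinib is an inhibitor of the FLT3 kinase. Gilteritinib or vehicle was given for 1 week, and the ketogenic or standard diet for 3 weeks. Each combination of drug, diet and label had 1 library, so there were 8 libraries and no group had a replicate. The groups were gilteritinib with ketogenic diet, gilteritinib with standard diet, vehicle with ketogenic diet and vehicle with standard diet, once under each label. Under 1 label (batch code JE590) the RNA came from whole liver that held mouse cells and human MOLM14 cells. Under the other (batch code JE558) it came from human CD45-positive cells sorted out of bone marrow. The label and the batch code coincided in all 8 libraries and cannot be told apart. How many animals a library represents was not given in the sources used here.

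The 6 genes were chosen by their measured levels in the libraries labelled liver, where they were higher with gilteritinib and lower again when the ketogenic diet was added. Values from those 4 libraries are therefore given as a description, with no test. The rule of choice did not use the 4 bone marrow libraries, and the tests come from them. Earlier results of these data were, however, known when the genes were chosen.

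RGS proteins speed up GTP hydrolysis by G protein alpha subunits and so shorten signalling from G protein-coupled receptors; RGS1 acts on chemokine receptor signalling in leukocytes, and RGS2 acts on Gq-coupled receptors and is induced by cyclic AMP. GPR183 (EBI2) is a G protein-coupled receptor for oxysterols that guides immune cell positioning. OSM, oncostatin M, is a cytokine of the interleukin-6 family that signals through gp130 and the JAK-STAT pathway. TRIB1 is a pseudokinase that brings C/EBP-alpha to the ubiquitin ligase COP1 for degradation. KLF6 is a zinc finger transcription factor of the Krüppel-like family, which bind GC-rich and CACCC sequences.

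Library totals were 13605936 to 27657147 counts in the libraries labelled liver and 15557885 to 33611830 counts in marrow. In the libraries labelled liver the depth went with the drug, at 27657147 and 26499478 counts with gilteritinib against 16542212 and 13605936 counts with vehicle. The hepatocyte markers ALB, TTR, APOA2, APOC3, AHSG, FGA and CYP3A4, 7 of 13 listed, had 0 counts in all 8 libraries. The 13 summed to 1.31 to 2.04 CPM (counts scaled to library size) under the liver label, so hepatocyte RNA was near absent from these human gene counts. In marrow the 13 summed to 0.704 to 1.77 CPM, so the ranges of the labels overlapped and this sum does not show the liver source. Leukaemia markers, 10 in the table, summed under the liver label to 999.8 and 1268 CPM with gilteritinib on ketogenic and standard diet, against 980 and 993 CPM with vehicle, so this sum too was highest with gilteritinib and standard diet. In marrow it was 1324 and 1349 CPM with gilteritinib, against 1061 and 1152 CPM with vehicle. Its part in the results below was not tested. Whether mouse reads were separated from human ones was not given in the sources used here.

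All 6 genes were detected in every library, with 43 to 2273 counts per gene and library, and all 6 passed the filter on low counts under both labels. RGS1 lies on chromosome 1 at chr1:192575727-192580031 on the plus strand, and RGS2 on the same strand at chr1:192809039-192812283 (GRCh38, GENCODE 29). KLF6 lies at chr10:3775996-3785281, GPR183 at chr13:99294530-99307405 and OSM at chr22:30262829-30266840, each on the minus strand. GPR183 sits within UBAC2 on the opposite strand with 0 shared exonic bases. UBAC2 read 114 and 127 CPM with gilteritinib against 126 and 132 CPM with vehicle under the liver label, and 133 and 129 CPM against 133 and 126 CPM in marrow. UBAC2 varied far less than GPR183 under the liver label and in marrow. The strand setting of the counting was not given, and whether UBAC2 reads entered the GPR183 count was not tested.

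Promoter stretches of 4 of the 6 genes are shown because members were chosen for moving together; they were taken from the RefSeq promoter table (GRCh38.p14), and each ends before the outermost GENCODE start of its gene. Capitals mark the core of the cyclic AMP response element (CRE; TGACG, or CGTCA on the other strand), the TATA box (TATAAA or TTTATA), the GC box (GGGCGG or CCGCCC) and the serum response CArG box. The RGS1 stretch is chr1:192575523-192575726, plus strand, the RGS2 stretch chr1:192808789-192809038, plus strand, the KLF6 stretch chr10:3785282-3785459, minus strand, and the GPR183 stretch chr13:99307406-99307649, minus strand.
RGS1: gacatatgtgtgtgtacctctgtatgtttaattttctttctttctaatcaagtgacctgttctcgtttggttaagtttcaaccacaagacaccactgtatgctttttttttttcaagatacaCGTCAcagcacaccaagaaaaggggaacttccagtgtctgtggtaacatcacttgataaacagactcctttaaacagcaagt
RGS2: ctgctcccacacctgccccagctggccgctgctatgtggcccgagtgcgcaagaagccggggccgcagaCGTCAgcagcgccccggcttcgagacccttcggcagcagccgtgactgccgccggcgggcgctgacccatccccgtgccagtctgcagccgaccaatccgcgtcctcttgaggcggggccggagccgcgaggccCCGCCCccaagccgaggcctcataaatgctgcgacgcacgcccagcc
KLF6: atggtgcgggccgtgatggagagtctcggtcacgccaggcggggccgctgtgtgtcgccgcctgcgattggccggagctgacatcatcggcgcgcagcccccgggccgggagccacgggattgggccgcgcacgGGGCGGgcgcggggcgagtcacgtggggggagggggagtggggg
GPR183: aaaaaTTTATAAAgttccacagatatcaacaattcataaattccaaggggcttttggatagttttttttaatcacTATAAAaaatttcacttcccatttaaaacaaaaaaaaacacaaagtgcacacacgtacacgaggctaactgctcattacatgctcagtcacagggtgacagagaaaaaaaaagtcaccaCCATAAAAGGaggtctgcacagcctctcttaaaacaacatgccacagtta

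RGS1 and RGS2, the regulators of G protein signalling, each held 1 CRE core on the reverse strand, with its first base at position -128 and position -181 from the RefSeq start. This core was found on either strand in 24.6% of the 35116 promoter windows of 300 bases in the table. KLF6 held 2 GC boxes, at -116 and, downstream of the printed stretch, at -61, and RGS2 held 1 at -47; a GC box was in 45.0% of windows. RGS1 had a TATA box at -27, also downstream of its printed stretch. In GPR183, TATA matches overlapped at -245 and -243 and a further one lay at -175; TATAAA was in 11.5% of windows. GPR183 also held a CArG box at -56, found in 1.29% of windows, and a CACCC box (CACCC) on the reverse strand at -83, found in 59.9%. The ETS core (GGAA), present in 95.5% of windows, matched in RGS1, KLF6 and GPR183. The full CRE (TGACGTCA, which contains the core; 1.85% of windows), the AP-1 motif (TGANTCA; 7.71%), the STAT motif (TTCNNNGAA; 7.66%) and the C/EBP motif (TTGCNNNAA; 9.21%) were not among the letters of these 4 windows. Both strands were searched, and a match is a description of letters and not of factor binding.

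Under the liver label all 6 genes were highest in the library with gilteritinib and standard diet. Adding the ketogenic diet to gilteritinib went with lower levels of all 6, and none of the 6 was as low there as in either vehicle library. RGS1 had the widest range and KLF6 the narrowest.

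RGS1 stood at 16.04 CPM with gilteritinib and ketogenic diet, 34.3 CPM with gilteritinib and standard diet, 3.89 CPM with vehicle and ketogenic diet and 3.13 CPM with vehicle and standard diet. Its drug groups did not overlap, and its highest level was 10.95 times its lowest. RGS2 stood at 24.9 and 36.8 CPM with gilteritinib on ketogenic and standard diet, against 7.54 and 5.83 CPM with vehicle on the same diets. Again both gilteritinib libraries lay above both vehicle libraries. GPR183, the oxysterol receptor, reached 31.5 and 81.2 CPM with gilteritinib on ketogenic and standard diet, against 14.0 and 14.3 CPM with vehicle. The cytokine gene OSM had 49.1 and 85.3 CPM with gilteritinib on ketogenic and standard diet, and 22.7 and 18.5 CPM with vehicle. For GPR183 and OSM too, and for TRIB1 and KLF6 below, the drug groups did not overlap. The genes were chosen on these libraries, which favours such a separation, and the share of all genes without overlap was not counted. TRIB1, the pseudokinase, was at 34.9 and 50.5 CPM with gilteritinib on ketogenic and standard diet, and at 14.2 and 17.0 CPM with vehicle. The transcription factor gene KLF6 showed 25.5 and 64.0 CPM with gilteritinib on ketogenic and standard diet, against 20.4 and 24.8 CPM with vehicle. KLF6 with gilteritinib and ketogenic diet was thus within 1 CPM of vehicle with standard diet, the closest approach to vehicle among the 6.

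**Figure D1:**
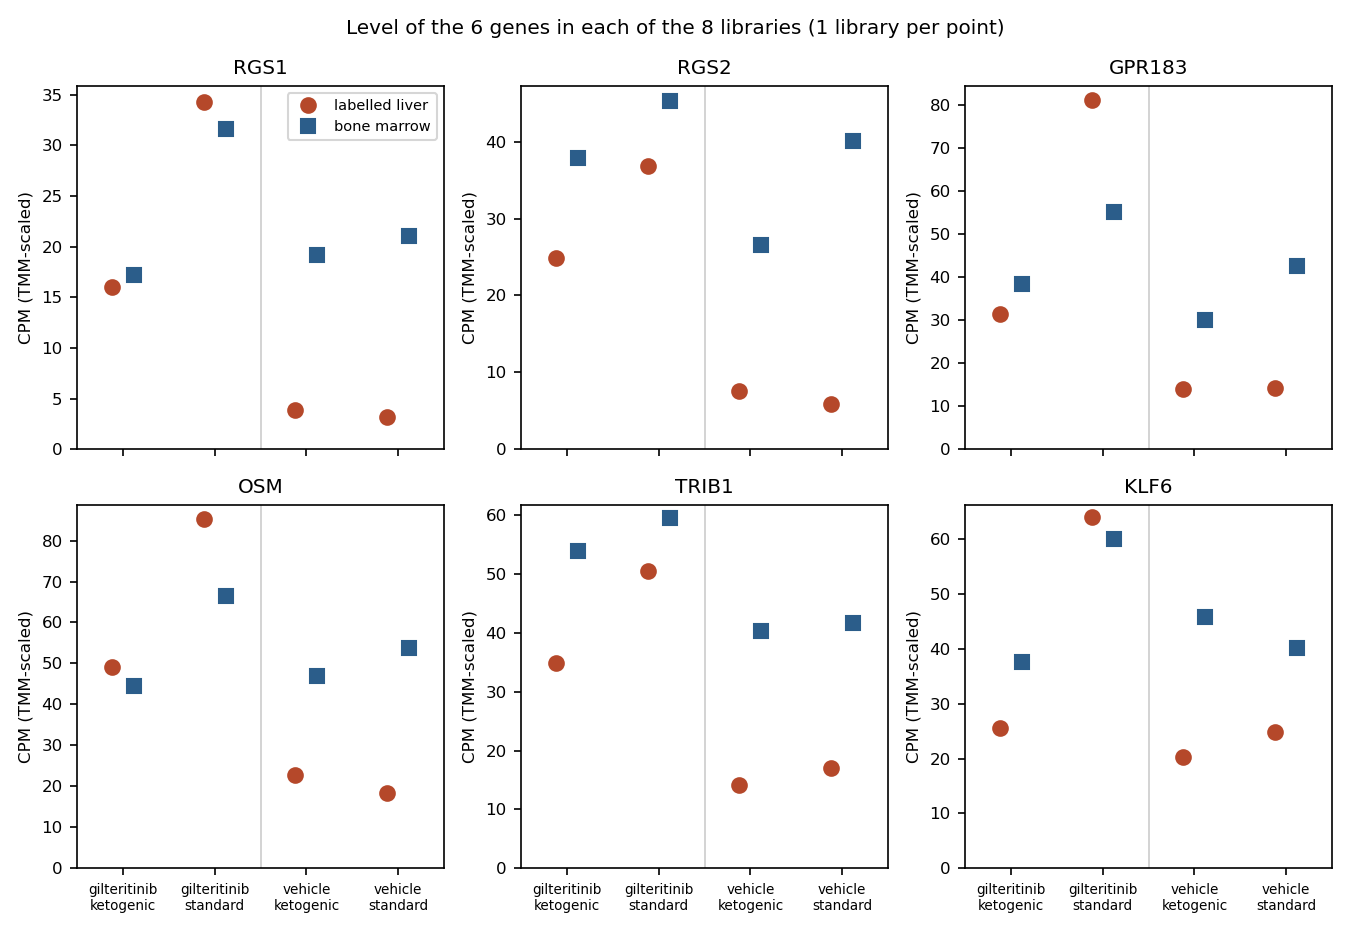
Level of each gene in each library, in CPM scaled by TMM factors, with 1 point per library (circles, libraries labelled liver; squares, bone marrow) and no error bar because each group had 1 library. Under the liver label the gilteritinib and standard diet library is the highest for all 6 genes, while the marrow points spread far less.

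Gilteritinib over vehicle on the standard diet gave ratios of 10.95 for RGS1, 6.32 for RGS2, 5.66 for GPR183, 4.61 for OSM, 2.96 for TRIB1 and 2.58 for KLF6 under the liver label. On the ketogenic diet the same ratios were 4.12, 3.30, 2.25, 2.16, 2.45 and 1.25, smaller for each of the 6 genes. Exact 95% intervals, which cover counting error only, ran from 8.06 to 15.2 for RGS1 on the standard diet and from 3.17 to 5.44 on the ketogenic diet. For TRIB1 these intervals overlapped, at 2.58 to 3.42 on the standard diet and 2.12 to 2.84 on the ketogenic diet. The ratio on the ketogenic diet divided by that on the standard diet was 0.376 for RGS1, 0.522 for RGS2, 0.398 for GPR183, 0.468 for OSM, 0.827 for TRIB1 and 0.486 for KLF6. With 1 library per group, no degree of freedom was left to test this interaction of drug and diet within a label.

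Ketogenic over standard diet under gilteritinib, again under the liver label, was 0.468 for RGS1, 0.675 for RGS2, 0.388 for GPR183, 0.576 for OSM, 0.692 for TRIB1 and 0.398 for KLF6. Under vehicle the diet ratio was 1.24 for RGS1, 1.29 for RGS2 and 1.23 for OSM, and 0.976 for GPR183, 0.836 for TRIB1 and 0.819 for KLF6. The G protein regulators and the cytokine were therefore slightly higher on the ketogenic diet without the drug, and their intervals for RGS1 (0.832 to 1.87) and RGS2 (0.970 to 1.74) held 1. Over all genes tested, 49.9% had a ratio below 1 under gilteritinib and 49.7% under vehicle.

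**Figure D2:**
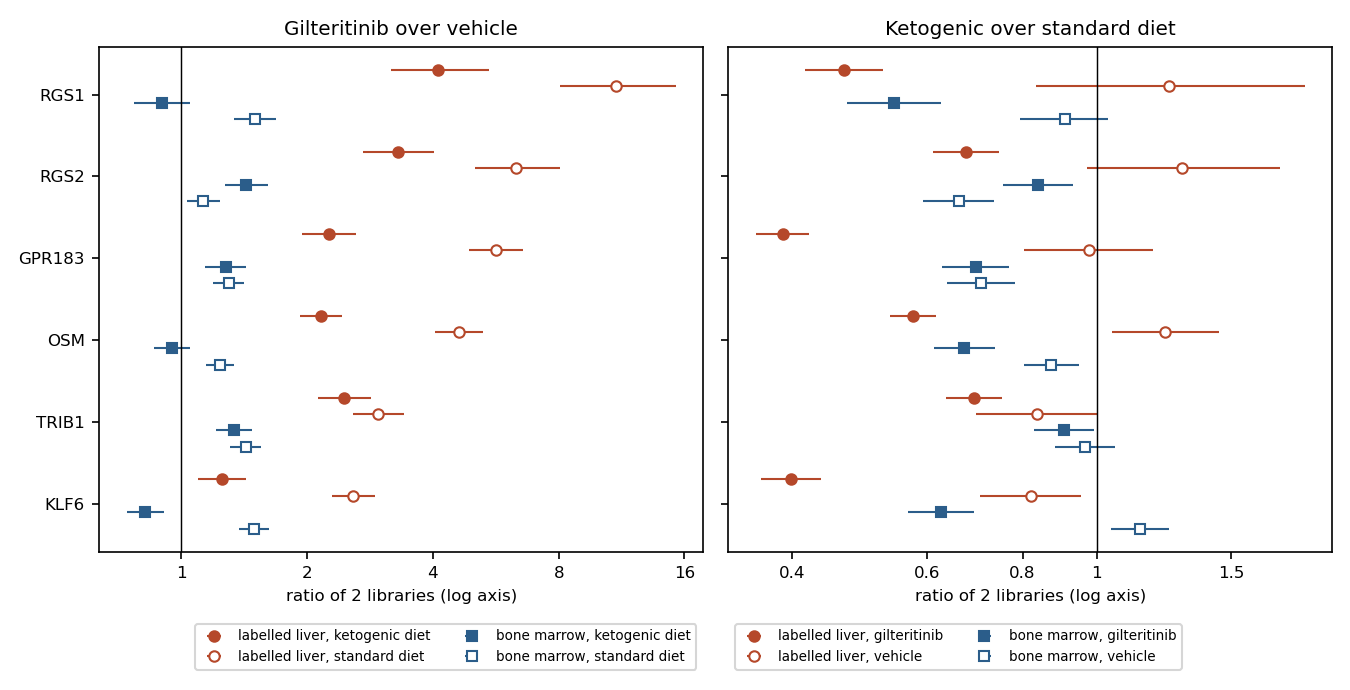
Ratios between single libraries on log axes, gilteritinib over vehicle within each diet (left) and ketogenic over standard diet within each drug arm (right), with exact 95% intervals for counting error; circles are libraries labelled liver and squares bone marrow. Drug ratios under the liver label are 1.25 to 10.95, while those in marrow are 0.820 to 1.502.

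In an edgeR fit of the 4 libraries labelled liver, with drug and diet as terms, the log2 fold change of gilteritinib over vehicle was 2.73 for RGS1, 2.16 for RGS2, 1.84 for GPR183, 1.64 for OSM, 1.43 for TRIB1 and 0.86 for KLF6. Over the 14092 genes tested there, 1.41% were called higher and 0.844% lower with the drug. The log2 fold change of ketogenic over standard diet was -0.74 for RGS1, -0.26 for RGS2, -0.83 for GPR183, -0.33 for OSM, -0.42 for TRIB1 and -0.87 for KLF6, and 0.653% of genes were called lower and 0.362% higher with the diet. Counts thinned to the smallest library, which removes the depth gap between the drug groups, gave drug values of 2.85, 2.14, 1.81, 1.54, 1.43 and 0.83 in the same gene order. In bulk RNA, fewer cells of a type and less RNA per cell cannot be told apart.

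The pattern by which the genes were chosen, at any size, held for 32.3% of the genes tested under the liver label, and for far fewer at larger size. A gain of 2-fold or more with gilteritinib on the standard diet, with a ketogenic level under gilteritinib at most 1/2 of the standard one, was found in 23 genes under the liver label, or 0.163% of those tested. RGS1, GPR183 and KLF6 were among them, and so were CSRNP1 and BHLHE40, so the pattern was not particular to the 6. At 1.5-fold the pattern held for 189 genes, or 1.34%, and OSM was added. RGS2 and TRIB1 missed the 1.5-fold limit through the diet ratio alone, at 0.675 and 0.692.

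In bone marrow the same 6 genes varied much less. The highest library was 1.47 to 1.84 times the lowest, against 3.15 to 10.95 times under the liver label. With vehicle, both marrow libraries lay above both libraries labelled liver for all 6 genes, a comparison that also crosses batch codes. Choosing genes that rose with the drug under the liver label favours low vehicle levels there. The share of all genes with this order was not counted.

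RGS1 had 17.2 CPM with gilteritinib and ketogenic diet and 31.6 CPM with gilteritinib and standard diet in marrow, against 19.1 and 21.1 CPM with vehicle on the same diets. RGS2 had 37.9 and 45.3 CPM with gilteritinib on ketogenic and standard diet, against 26.5 and 40.1 CPM with vehicle. For these regulators of G protein signalling the drug groups overlapped. Marrow GPR183 was 38.4 and 55.3 CPM with gilteritinib on ketogenic and standard diet, and 30.1 and 42.6 CPM with vehicle. OSM was 44.5 and 66.4 CPM with gilteritinib on ketogenic and standard diet, and 46.9 and 53.7 CPM with vehicle. Drug groups overlapped for the receptor and the cytokine as well. TRIB1 was 53.9 and 59.5 CPM with gilteritinib on ketogenic and standard diet, against 40.4 and 41.8 CPM with vehicle. It was the single gene of the 6 whose marrow drug groups did not overlap. The share of all genes tested without overlap was not counted, so this does not set TRIB1 apart from genes at large. KLF6 was 37.6 and 60.1 CPM with gilteritinib on ketogenic and standard diet, and 45.8 and 40.2 CPM with vehicle, so its lowest and highest libraries were both gilteritinib libraries.

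TRIB1 and GPR183 rose with gilteritinib in marrow, and the other 4 did not pass the test. The log2 fold change of TRIB1 was 0.46 ± 0.12 (SE; adjusted p = 0.00337 by edgeR's quasi-likelihood test with Benjamini-Hochberg adjustment) and that of GPR183 was 0.36 ± 0.12 (adjusted p = 0.0290). RGS2 had 0.33 ± 0.13 (edgeR adjusted p = 0.0547). RGS1 had 0.25 ± 0.15 (edgeR adjusted p = 0.266), KLF6 0.16 ± 0.14 (0.473) and OSM 0.12 ± 0.12 (0.528). These 2 of 6 genes called higher stand beside 10.5% of the 14029 genes tested, and none of the 6 was called lower, beside 9.82%.

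Neither drug call held under all 14 other settings. TRIB1 was called in 9 of 14 and GPR183 in 5 of 14. Both were lost with library totals as the scale (edgeR adjusted p = 0.0629 and 0.227). Marrow libraries were left out of a joint fit of all 8 libraries, not of the fit of 4. With no library left out, that joint fit called TRIB1 (edgeR adjusted p = 0.0108) but not GPR183 (0.266). GPR183 was thus lost before any library was removed. With any 1 of the 4 marrow libraries removed, neither was called. The drug value was then 0.41 to 0.51 log2 for TRIB1 and 0.34 to 0.38 log2 for GPR183. The drug values of RGS1, OSM and KLF6 were below 0 without the gilteritinib and standard diet library, at -0.15, -0.07 and -0.29 log2, and without the vehicle and standard diet library, at -0.16, -0.08 and -0.29 log2, because the ketogenic arm alone then gives the effect. KLF6 was called higher, at 0.58 log2, without the gilteritinib and ketogenic diet library (edgeR adjusted p = 0.0490) or the vehicle and ketogenic diet library (0.0498).

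GPR183 fell with the ketogenic diet in marrow, with a log2 fold change of -0.53 ± 0.12 (SE; edgeR adjusted p = 0.0245). It was 1 of 6 genes called lower, beside 0.15% of genes tested, and none of the 6 was called higher, beside 0.342%. RGS1 had -0.52 ± 0.15 (edgeR adjusted p = 0.138), RGS2 -0.44 ± 0.13 (0.129) and OSM -0.40 ± 0.12 (0.155). KLF6 had -0.25 ± 0.14 (edgeR adjusted p = 0.592) and TRIB1 -0.11 ± 0.12 (0.829), so the gene with the clearest drug difference had the smallest diet difference. The GPR183 call was kept in 5 of 14 other settings, with an edgeR adjusted p as low as 0.00335. It was already lost in the joint fit of all 8 libraries, at -0.51 log2 (edgeR adjusted p = 0.583). With any 1 marrow library left out of that joint fit, GPR183 was at -0.54 to -0.50 log2, again without a call. RGS1 was called lower, at -0.90 log2, when the vehicle and ketogenic diet library (edgeR adjusted p = 0.0156) or the vehicle and standard diet library (0.0160) was left out, and KLF6 was at 0.19 log2 without either gilteritinib library.

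**Figure D3:**
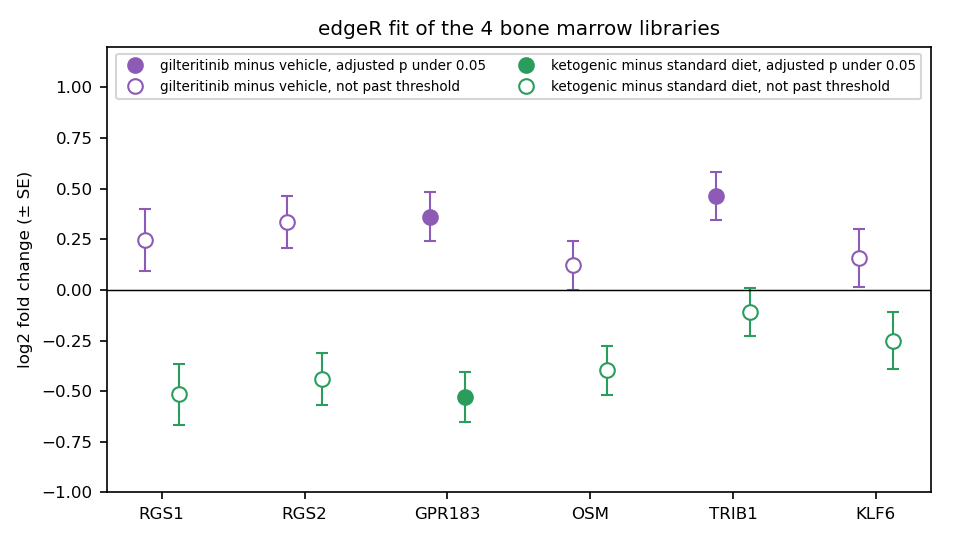
Log2 fold changes in the edgeR fit of the 4 bone marrow libraries, gilteritinib minus vehicle and ketogenic minus standard diet, with bars of ± 1 SE; filled points have an adjusted p under 0.05. All 6 drug values are above 0 and all 6 diet values below 0, with TRIB1 and GPR183 filled for the drug and GPR183 for the diet. Over all genes tested the median was -0.006 log2 for the drug and 0.003 log2 for the diet. The drug values of RGS1, OSM and KLF6 change sign when either standard diet library is left out, and the 6 genes are not independent of each other.

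By single marrow libraries, gilteritinib over vehicle on the standard diet was 1.502 for RGS1, 1.13 for RGS2, 1.30 for GPR183, 1.24 for OSM, 1.42 for TRIB1 and 1.49 for KLF6. On the ketogenic diet it was 1.43 for RGS2, 1.28 for GPR183 and 1.34 for TRIB1, and it was 0.899 for RGS1, 0.950 for OSM and 0.820 for KLF6. The last 3 genes were thus higher with the drug on 1 diet and not on the other. The ratio on the ketogenic diet divided by that on the standard diet was 0.599 for RGS1, 0.549 for KLF6, 0.769 for OSM, 0.938 for TRIB1, 0.983 for GPR183 and 1.27 for RGS2, so RGS2 differed in sense from its value under the liver label.

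Ketogenic over standard diet under gilteritinib in marrow was 0.543 for RGS1, 0.837 for RGS2, 0.694 for GPR183, 0.671 for OSM, 0.907 for TRIB1 and 0.625 for KLF6. It was below 1 in 6 of 6 genes, beside 48.1% of genes tested. Under vehicle it was 0.908 for RGS1, 0.661 for RGS2, 0.706 for GPR183, 0.873 for OSM and 0.966 for TRIB1, and 1.14 for KLF6, below 1 in 5 of 6 genes beside 49.3%. A marrow level higher with gilteritinib on the standard diet and lower with the ketogenic diet under gilteritinib, at any size, held for 6 of 6 genes, beside 3577 genes or 25.5% of those tested. None of the 6 reached the pattern at 2-fold, which 0.257% of genes did, or at 1.5-fold, which 1.32% did. Both ratios of this pattern share the gilteritinib and standard diet library, so its own deviation enters both, and the 6 genes are not independent of each other.

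**Figure D4:**
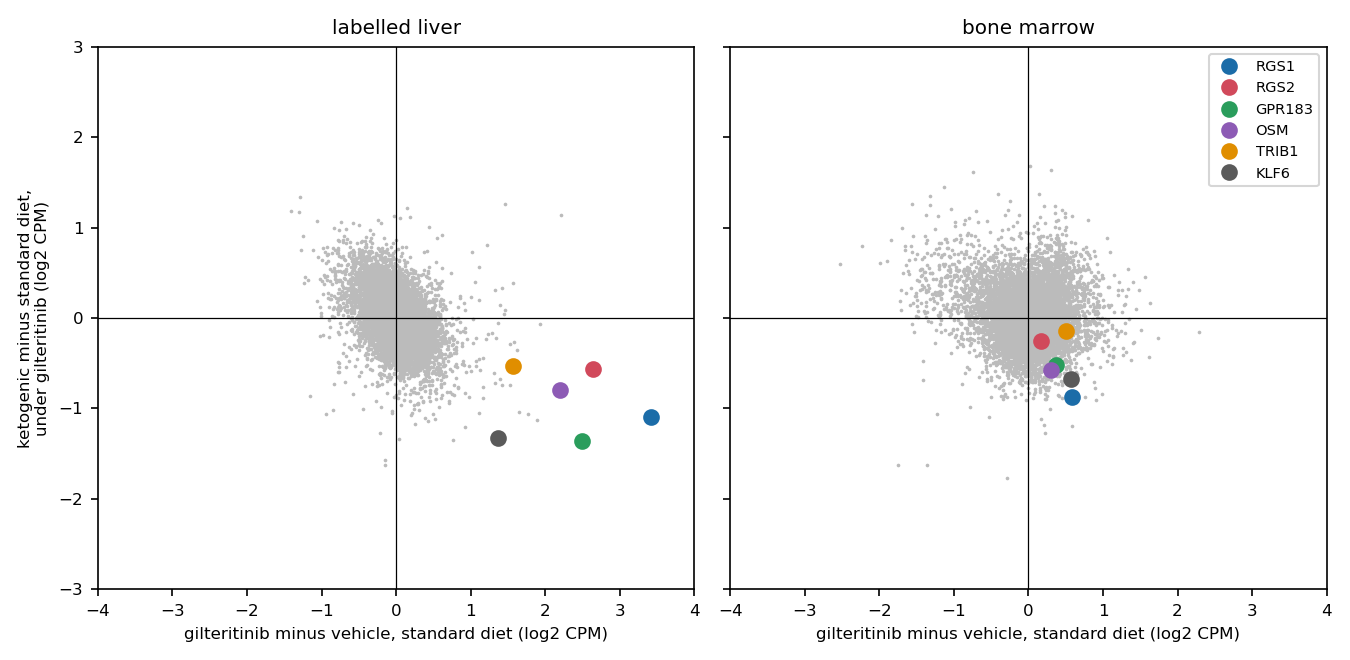
Each tested gene whose mean log2 CPM was 2 or more is placed by the log2 difference of gilteritinib minus vehicle on the standard diet (horizontal) and of ketogenic minus standard diet under gilteritinib (vertical), in the libraries labelled liver (left) and bone marrow (right). Coloured points are the 6 genes. On the left, where they were chosen, they lie to the lower right, where other genes such as CSRNP1 and BHLHE40 also lie. On the right they lie within the lower right part of the grey cloud.

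Set per kilobase of exon, the order of levels was the same under both labels with gilteritinib and standard diet. Exon length joined the exons of all annotated transcripts of a gene, 4117 bases for RGS1 and 1700 for GPR183. It can exceed the length of the transcripts present, which lowers the value, so the order between genes depends on this divisor. GPR183 led with 47.7 CPM per kb under the liver label and 32.5 CPM per kb in marrow, followed by OSM with 40.3 and 31.4 CPM per kb. RGS2 came next with 17.6 and 21.6 CPM per kb, then TRIB1 with 12.2 and 14.4, KLF6 with 10.4 and 9.78 and RGS1 with 8.33 and 7.68. With vehicle and standard diet under the liver label, OSM (8.75 CPM per kb) and GPR183 (8.44) were again highest, and RGS1 (0.761) was lowest. No spread between replicates was available to separate neighbours in this order.

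Among themselves the 6 genes were compared by their log2 CPM centred within each label. GPR183 and OSM were closest, with a mean absolute difference of 0.18 over the 8 libraries, and RGS1 and KLF6 were farthest apart, at 0.53. Of 9415 other genes, those nearest the mean profile of the 6 were PROCR (0.17), CSRNP1 (0.19), SOCS3 (0.20), TOB1 (0.24) and DDIT4 (0.25). PROCR is the protein C receptor, SOCS3 is a feedback inhibitor of gp130 and JAK-STAT signalling, TOB1 is an antiproliferative protein and DDIT4 inhibits mTORC1. The nearest single gene was SOCS3 for OSM (0.17), BHLHE40, a transcriptional repressor, for KLF6 (0.11), and ZFP36, which promotes messenger RNA decay, for TRIB1 (0.13). PROCR was nearest to GPR183 (0.24) and to RGS1 (0.44), and CSRNP1 to RGS2 (0.31).

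SOCS3 stood at 39.2 and 62.5 CPM with gilteritinib on ketogenic and standard diet under the liver label, against 19.8 and 23.8 CPM with vehicle. Its marrow levels were 49.1 and 66.4 CPM with gilteritinib and 55.1 and 55.7 CPM with vehicle on the same diets. As with OSM, the drug groups were apart under the liver label and overlapped in marrow. In the marrow fit, ZFP36 rose with gilteritinib by 0.44 ± 0.11 log2 (SE; edgeR adjusted p = 0.00201) and TOB1 by 0.40 ± 0.11 log2 (0.00851). DDIT4 fell with the ketogenic diet, with a log2 fold change of -0.47 ± 0.11 (edgeR adjusted p = 0.0284). All 8 libraries entered the profiles, so likeness here carries the choice made on 4 of them.

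Relatives and partners of the 6 genes were counted in the marrow drug test, in which 10.5% of all genes tested were called higher and 9.82% lower. Of the 9 other RGS genes tested, 2 rose and 2 fell: RGS14, which acts on Gi alpha, rose by 0.40 ± 0.13 log2 (SE; edgeR adjusted p = 0.0228) and RGS16 had -0.48 ± 0.17 log2 (0.0366), while RGS3 rose by 1.12 log2 and RGS20 had -0.92 log2, both at a mean log2 CPM under 2 and named after their values were seen. Their median was 0.11 log2, beside -0.01 over all genes. With library totals as the scale, which moves the median of all genes to -0.15 log2, 1 rose and 3 fell, and RGS14 was no longer called (0.176). Of 9 G alpha subunit genes, GNAI3 and GNA13 fell, at -0.41 ± 0.11 and -0.35 ± 0.12 log2 (SE; edgeR adjusted p = 0.00462 and 0.0303), and none rose; the list median was -0.07 log2, and 3 fell on library totals.

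None of 3 tested genes of oxysterol synthesis and breakdown passed the drug test in marrow, with a median of 0.28 log2, and 1 was called lower on library totals. CYP27A1 and HSD11B1 were low, at a mean log2 CPM of -0.71 and 0.05, with an SE of 0.62 and 0.54 log2. The median is the value of HSD3B7. These genes were named after their values were seen. CH25H, which makes the precursor of the main GPR183 ligand, had 0 counts in all 8 libraries, which allows up to 0.0893 to 0.220 CPM depending on the library.

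Around OSM, 1 of 10 tested genes of the gp130 axis passed the drug test, a share near the 9.82% called lower over all genes. IL6R, the interleukin-6 receptor, fell, at -0.32 ± 0.11 log2 (SE; edgeR adjusted p = 0.0299), and the list median was -0.01 log2. IL6ST, which encodes gp130, was at 5.04 to 7.004 CPM over the 8 libraries and had 0.09 ± 0.23 log2 (edgeR adjusted p = 0.824). OSMR, the OSM-specific receptor chain, was near the floor at 0.150 to 0.645 CPM. SOCS3 had 0.05 ± 0.12 log2 with the drug in marrow (edgeR adjusted p = 0.830).

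C/EBP genes, which encode the partners of Tribbles proteins, rose with gilteritinib in marrow. CEBPD rose by 1.16 ± 0.15 log2, CEBPB by 1.00 ± 0.16 log2 and CEBPA by 0.62 ± 0.11 log2 (SE; edgeR adjusted p = 3.21e-08, 4.39e-06 and 1.99e-05). CEBPA stood at 474 and 495 CPM with gilteritinib on ketogenic and standard diet, against 337 and 294 CPM with vehicle. TRIB3, named after its value was seen, fell, at -0.59 log2, so 3 of 6 tested genes rose and 1 fell, with a median of 0.37 log2; all 4 calls were also made on library totals.

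Of 11 tested Krüppel-like factors other than KLF6, 6 rose and none fell with gilteritinib in marrow. KLF2 rose by 0.74 ± 0.11 log2, KLF4 by 0.61 ± 0.13 log2 and KLF13 by 0.51 ± 0.12 log2 (SE; edgeR adjusted p = 7.93e-07, 0.000649 and 0.00163). The list median was 0.43 log2, and on library totals 3 rose and 1 fell.

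Among 11 tested cyclic AMP and CREB target genes, 3 rose and 1 fell with gilteritinib in marrow, with a median of 0.27 log2, and on library totals 3 rose and 2 fell. NR4A2 and FOSB, both transcription factor genes, rose by 0.93 ± 0.17 and 0.72 ± 0.11 log2, and THBD, thrombomodulin, had -0.48 ± 0.15 log2 (SE; edgeR adjusted p = 3.96e-05, 1.86e-06 and 0.0225). The third gene that rose, PDE4B, a cyclic AMP phosphodiesterase named after its value was seen, had 3.06 ± 0.67 log2 (SE; edgeR adjusted p = 0.000606) at a mean log2 CPM of -0.63. NR4A1, of the same family as NR4A2, had 0.42 ± 0.21 log2 and CXCR4, a chemokine receptor gene, 0.20 ± 0.11 log2 (SE; edgeR adjusted p = 0.143 and 0.179). Of 18 immediate early and dissociation genes, which share FOS and FOSB with that list, 7 rose and 1 fell, with a median of 0.26 log2, and on library totals 5 rose and 2 fell. JUN rose by 0.94 ± 0.13 log2 and NFKBIA by 0.82 ± 0.13 log2, while EGR1, a target of ERK signalling, fell, at -2.46 ± 0.15 log2 (SE; edgeR adjusted p = 1.58e-07, 3.86e-06 and 7.31e-17). FLT3 itself had 0.07 ± 0.11 log2 (edgeR adjusted p = 0.697).

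With the ketogenic diet, no gene of these lists outside the 6 was called in marrow except BTG2, an antiproliferative immediate early gene named after its value was seen, at -0.64 ± 0.15 log2 (SE; edgeR adjusted p = 0.0228), and that call was lost with median-ratio size factors. The list medians were -0.11 log2 for the Krüppel-like factors, -0.04 for G alpha subunits, -0.03 for the gp130 axis and -0.02 for the RGS genes. They were 0.002 for the oxysterol genes, 0.03 for immediate early genes, 0.05 for CREB targets and 0.10 for Tribbles partners, beside 0.003 over all genes.

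Under the liver label, given as a description, the drug calls were 0 of 9 other RGS genes, 0 of 9 G alpha genes, 0 of 3 oxysterol genes, 2 of 11 Krüppel-like factors (KLF2 and KLF4), 2 of 6 Tribbles partners (CEBPB and CEBPD), 1 of 9 gp130 axis genes (SOCS3, 1.19 log2), 5 of 11 CREB targets (NR4A1, at 0.81 log2, among them) and 8 of 18 immediate early genes, all higher, beside 1.41% of all genes tested. With the diet, FOSB was called lower there, at -0.51 log2, and HSPA1B, a heat shock protein gene named after its value was seen, higher, at 0.72 log2, beside 0.653% lower and 0.362% higher over all genes.

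Genes listed as markers of other cell types and of stress were summed beside these results. CSF1R of the macrophage list and MPO of the neutrophil granule list are also on the leukaemia list. The counts are of human genes in mice engrafted with human leukaemia cells, so the sums do not show that other cell types were present. Immediate early and dissociation genes, 20 of 20 in the table, summed to 4828 and 5215 CPM with gilteritinib on ketogenic and standard diet against 3976 and 4058 CPM with vehicle under the liver label, and to 5387 and 5572 CPM against 5025 and 4699 CPM in marrow. Kupffer cell and macrophage markers, 11 in the table, summed to 47.3 and 66.6 CPM with gilteritinib against 29.6 and 44.4 CPM with vehicle under the liver label, and to 94.9 and 79.8 CPM against 31.4 and 38.8 CPM in marrow; C1QB and TIMD4 were at 0 in all 8 libraries. Lymphoid markers, 13 in the table, summed to 144 and 151 CPM with gilteritinib against 151 and 155 CPM with vehicle under the liver label, and to 179 and 195 CPM against 159 and 157 CPM in marrow, with CD2, KLRD1 and MS4A1 at 0 throughout. Stromal and endothelial markers, 11 in the table, summed to 253 and 260 CPM with gilteritinib on ketogenic and standard diet against 220 and 214 CPM with vehicle under the liver label, and to 335 and 308 CPM against 231 and 236 CPM in marrow; COL3A1, DCN, CDH5, KDR and CXCL12 were at 0 in all 8 libraries. The immediate early, macrophage and stromal sums were higher in the gilteritinib libraries on each diet under both labels, as the 6 genes were under the liver label, and their part in the result was not tested.

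Neutrophil granule markers, 8 in the table with LTF at 0 throughout, summed to 4764 CPM with gilteritinib and ketogenic diet and 2813 CPM with gilteritinib and standard diet under the liver label, against 4122 and 3446 CPM with vehicle on the same diets. In marrow they summed to 5141 and 3013 CPM with gilteritinib on ketogenic and standard diet, against 3029 and 2701 CPM with vehicle. This sum was higher with the ketogenic diet under gilteritinib, where the 6 genes were lower, under both labels, and its part in the result was not tested. Plasma cell markers, 8 in the table, summed to 926 and 807 CPM with gilteritinib on ketogenic and standard diet against 1015 and 932 CPM with vehicle under the liver label, and to 829 and 994 CPM against 837 and 852 CPM in marrow. Erythroid markers were at 0 to 0.151 CPM in every library.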

How the data were processed

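Messenger RNA libraries were made from total RNA and sequenced with paired ends, per the labels' protocols. The submitters' processing notes name STAR 2.7.3a and GRCh38, while the counter, its annotation and its strand setting could not be found in the sources used here. The deposited table holds the authors' raw gene counts of 60676 genes, not normalized. Coordinates came from GENCODE 29, which holds 96.4% of the identifiers.

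The 6 genes and the gene lists were chosen with earlier results of these data known. Besides the 6, the text names up to 3 called genes per list with the largest drug change in marrow among those whose mean log2 CPM was 2 or more, 11 genes always reported, and the genes of nearest profile; others are marked as named after their values were seen.

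A gene was tested under a label when 2 or more of the 4 libraries held 10 or more of its counts. The test was edgeR 4.0.16 (R 4.3.3) with TMM scaling, robust dispersions, the bias-adjusted quasi-likelihood method, drug and diet as terms, two-sided p-values and Benjamini-Hochberg adjustment over all genes tested, at a threshold of 0.05. This leaves 1 residual degree of freedom, so the p-values depend strongly on a spread pooled over genes and speak only of differences between these libraries. Standard errors were computed as the fold change over the root of F. Levels in CPM used TMM factors over all 8 libraries, and log2 CPM a prior count of 2. Ratios carry exact conditional 95% intervals; reads have no molecular identifiers, so intervals and the floor of 3 counts cover counting error only. Alternatives were DESeq2 1.42.0, voom in limma 3.58.1, different scalings and filters, edgeR's older quasi-likelihood method, models without the second factor, a joint model of all 8 libraries, and that model with each marrow library left out. There the spread comes from the other label, and a lone library is assumed to vary like the others. Thinned counts were added after the data had been seen. The fits were tested on simulated counts.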

Additional observations from a re-analysis of the deposited data

Results flagged for a closer look

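Of 76 tested genes of the lists described, the 6 left out, 6 differed in drug effect between the labels. The difference came from an edgeR fit of all 8 libraries, and label cannot be told apart from the batch code. EGR1 had a log2 fold change of gilteritinib over vehicle of 0.05 under the liver label and -2.46 in marrow, and the difference between labels was 2.51 ± 0.21 log2 (SE; edgeR adjusted p = 8.22e-07). NFKBIA had -0.12 under the liver label and 0.82 in marrow, a difference of -0.95 ± 0.19 log2 (SE; edgeR adjusted p = 0.00712). FOS had 0.53 under the liver label and -0.0040 in marrow, a difference of 0.53 ± 0.14 log2 (SE; edgeR adjusted p = 0.0492). SOCS3 had 1.19 under the liver label and 0.05 in marrow, a difference of 1.14 ± 0.19 log2 (SE; edgeR adjusted p = 0.00248). DUSP1, a phosphatase gene acting on MAP kinases, had 1.14 under the liver label and 0.29 in marrow, a difference of 0.84 ± 0.15 log2 (SE; edgeR adjusted p = 0.00391). ZFP36 had 1.00 under the liver label and 0.44 in marrow, a difference of 0.55 ± 0.15 log2 (SE; edgeR adjusted p = 0.0481). SOCS3 and ZFP36 were also named above for profiles near those of the 6. In that fit 367 of 14749 genes differed in drug effect between the labels. The difference was not tested for the 6 genes, which were chosen on 1 side of it.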

How the results depend on the processing

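No paired analysis was possible because each group had 1 library. Under the liver label, all 48 values of the 6 genes under other scalings, a filter of 50 counts and thinned counts kept their direction and moved by less than 1 SE. The other alternatives, among them DESeq2, voom, the joint model and libraries left out, were read for marrow only. The labels were therefore not put to the same settings. In marrow, 131 of 168 values kept direction and side of the threshold, 23 lost a call, 5 gained one and 9 reversed. The reversed values came from leaving out 1 library, where the drug values ran from -0.16 to 0.59 log2 for RGS1, from -0.080 to 0.31 for OSM and from -0.29 to 0.58 for KLF6, and the diet value of KLF6 from -0.70 to 0.19, and from library totals, where OSM had -0.026 log2 with the drug. On library totals 7 of 48 single-library ratios left their counting intervals, all in marrow. RGS2 was called higher with the drug with the filter of 50 counts (edgeR adjusted p = 0.0379).

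The 2850 genes called for the drug in marrow became 1221 with no filter, 1671 without the diet term, 1159 by DESeq2 and 852 to 1712 with 1 library left out; library totals gave 874 higher and 2774 lower, against 1473 and 1377. The 69 called for the diet became 42 with median-ratio size factors, 123 on thinned counts, 1 with no filter, 22 by DESeq2, 24 in the fit of all 8 libraries, 14 to 128 with 1 library left out, and 0 in edgeR without the drug term, where 134 genes had an unadjusted p under 0.05. Genes with the gain and fall-back at 1.5-fold were 185 in marrow and 189 under the liver label, against 36 and 23 at 2-fold. The cause of these moves was not tested.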
